A study of Rattus norvegicus with 151 samples.

Results

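Cav1, Cav2 and Lmcd1 were followed in 2 organs, liver and kidney, of rats dosed with MCHM, crude MCHM or PPH. They are 3 of the 14218 genes that the arrays named by a single symbol, and 8 probe sets carried their names (3 for Cav1, 4 for Cav2 and 1 for Lmcd1). For each gene and tissue the brightest of its probe sets was read. The genes were chosen by these measurements, because Cav2 and Lmcd1 stood out as lower in liver at high MCHM doses. Their MCHM liver values are therefore given as a description, with no test against the vehicle and no p for any relation that includes them, while crude MCHM and PPH in liver, and all 3 chemicals in kidney, were not used for the choice and were tested. In the whole data set every log2 value is an RMA expression value, and a difference of 1 is a 2-fold change.

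The rats, males of the Harlan Sprague-Dawley stock aged 6 to 8 weeks, received the test article by gavage on 5 consecutive days, in a toxicology programme that followed a chemical spill in West Virginia. MCHM (4-methylcyclohexanemethanol, a coal washing agent) and crude MCHM (the technical mixture, mostly MCHM) were each given at low doses of 0.1, 1 and 10 mg/kg and at high doses of 100, 300 and 500 mg/kg. PPH (propylene glycol phenyl ether) was given at 1, 10, 100, 500 and 1000 mg/kg. Each chemical had its own group given the corn oil vehicle alone, so every rat of the study had oral corn oil. The 85 rats gave 81 liver arrays and 69 kidney arrays for use, which fell into 40 groups of 2 to 5, and 151 arrays were deposited. A number in the array label names the rat, and 65 rats had both tissues. The kidney array of 0.1 mg/kg MCHM replicate 13 was left out because its values sat 1 row away from their probe set names.

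Caveolins are the coat proteins of caveolae, small flask-shaped pits of the cell surface that are abundant in endothelial cells, fat cells, fibroblasts and smooth muscle. Cav1 is needed to form the pits, and Cav2 associates with Cav1 in the coat. Cavins hold the coat together, Ehd2 sits at its neck, and Pacsin2 bends the membrane there. Lmcd1 encodes a LIM domain protein that, in mouse heart and muscle, works with calcineurin signalling and restrains the transcription factor Gata6. Liver holds few caveolae in hepatocytes, and whole tissue RNA was measured, so fewer cells of a type and less RNA per cell cannot be told apart.

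All 3 genes lie on rat chromosome 4, and Cav1 is the next protein-coding gene after Cav2. Lmcd1 lies elsewhere on the chromosome. The promoter windows of the 3 members are shown as a description, and whether locus or promoter bears on their levels was not tested. Each window runs from 250 bases before to 50 bases after the start of the gene, on the plus strand of the GRCr8 build, from RefSeq. They span chr4:46582431-46582730 (Cav2), chr4:46606288-46606587 (Cav1) and chr4:146948743-146949042 (Lmcd1). Capitals mark matches, on either strand, to 7 motifs that were searched.
Cav2: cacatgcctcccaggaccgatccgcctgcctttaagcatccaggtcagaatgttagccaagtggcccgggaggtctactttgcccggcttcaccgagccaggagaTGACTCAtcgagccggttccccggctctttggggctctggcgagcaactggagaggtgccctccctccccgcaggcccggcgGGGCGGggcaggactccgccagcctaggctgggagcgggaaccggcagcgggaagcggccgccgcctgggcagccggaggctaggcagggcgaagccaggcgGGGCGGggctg
Cav1: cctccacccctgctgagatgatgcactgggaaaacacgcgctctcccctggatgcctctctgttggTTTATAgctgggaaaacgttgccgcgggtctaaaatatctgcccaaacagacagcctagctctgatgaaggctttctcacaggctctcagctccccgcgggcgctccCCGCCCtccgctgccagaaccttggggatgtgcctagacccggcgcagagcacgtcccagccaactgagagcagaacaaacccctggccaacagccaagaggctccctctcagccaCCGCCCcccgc
Lmcd1: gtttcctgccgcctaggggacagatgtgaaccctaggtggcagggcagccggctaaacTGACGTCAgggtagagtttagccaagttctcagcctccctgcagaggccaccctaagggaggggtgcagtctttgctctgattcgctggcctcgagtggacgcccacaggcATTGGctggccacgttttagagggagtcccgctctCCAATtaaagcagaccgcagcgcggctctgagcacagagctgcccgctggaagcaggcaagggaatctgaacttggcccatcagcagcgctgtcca

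The windows of the caveolins differed from that of Lmcd1 in the letters they held. Cav2 and Cav1 each held 2 matches to the GC box GGGCGG, which 33.1% of all 33469 promoter windows of this length contained, and Lmcd1 held none. Cav2 held 1 match to the AP-1 motif TGACTCA (4.63% of windows) and Cav1 held 1 to the TATA box TATAAA (14.2%). Lmcd1 held 1 match to the cAMP response motif TGACGTCA (1.83%) and 2 to the CCAAT box (37.5%). AGATAA (11.6%) and TCACNCCAC (1.12%) had no match in any of the member windows, and no marked matches overlapped. A further window that RefSeq lists for Cav1 held none of these letters. The motifs are a description of the sequence and say nothing of which factor binds.

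By the means of marker lists, the tissues matched their labels. Markers of hepatocytes averaged 13.05 log2 units in liver and 5.91 in kidney, and those of kidney tubules averaged 11.76 in kidney and 4.70 in liver. Of the hepatocyte list, Ass1 (mean 12.16 in kidney and 11.83 in liver) and Cyp2e1 (11.02 and 13.53) read high in kidney too. Alb reached 11.06 in kidney (kidney mean 4.95) and Ttr reached 9.32 (kidney mean 5.19). Both stayed below their lowest liver values of 14.625 and 14.04. The source of the Alb and Ttr signal in kidney was not tested. The median log2 value of an array ran from 5.215 to 5.376, and arrays of the same tissue and chemical correlated with each other at a median r of 0.987 to 0.995. Whether liver and kidney were normalized together is not given in the sources used here. With that limit, Cav1 ranged from 7.32 to 10.23 in kidney and from 5.12 to 6.90 in liver. Lmcd1 ranged from 6.50 to 7.54 in kidney and from 4.28 to 5.87 in liver, so neither gene overlapped between the tissues. Cav2 overlapped between them, with 8.02 to 9.33 in kidney and 6.40 to 8.38 in liver on the probe set 1390800_a_at. The share of all genes without overlap between the tissues was not counted, so these ranges only describe the values.

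Cav2 in liver was lowest at the highest dose of both MCHM preparations. At 500 mg/kg MCHM the 4 arrays read 6.98, 7.37, 7.29 and 7.14 log2 units, against 7.81, 8.02, 8.13, 8.21 and 8.03 in MCHM vehicle livers. All treated arrays lay below all vehicle arrays, and the means were 7.19 ± 0.17 (SD, n = 4) and 8.04 ± 0.15 (SD, n = 5), a difference of -0.85. Means at the lower doses were 8.02 at 0.1 mg/kg, 8.05 at 1 mg/kg, 7.90 at 10 mg/kg, 7.86 at 100 mg/kg and 7.77 at 300 mg/kg, and on this probe set (1390800_a_at) these groups overlapped the vehicle. The 300 mg/kg group had the wider spread (7.77, 8.13, 7.88 and 7.30), with replicate 33 lowest. For scale, 0.512% of 11335 genes were called at 500 mg/kg MCHM, and nothing is read from this count because the gene was chosen here. The share of all genes whose treated and vehicle arrays did not overlap was not counted.

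Other Cav2 probe sets gave the same order at 500 mg/kg MCHM. Probe set 1377642_at averaged 7.10 in treated and 8.00 in vehicle livers, and 1386261_x_at averaged 5.11 in treated and 5.77 in vehicle livers, each with no overlap. The dimmer 1370135_at averaged 4.43 in treated and 4.77 in vehicle livers, with overlap. Already at 100 mg/kg, 1377642_at (difference -0.32) and 1386261_x_at (-0.25) lay wholly below the vehicle, while 1370135_at differed by -0.017. At 300 mg/kg all 4 probe sets overlapped the vehicle, with differences from -0.29 to 0.043.

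**Figure D1:**
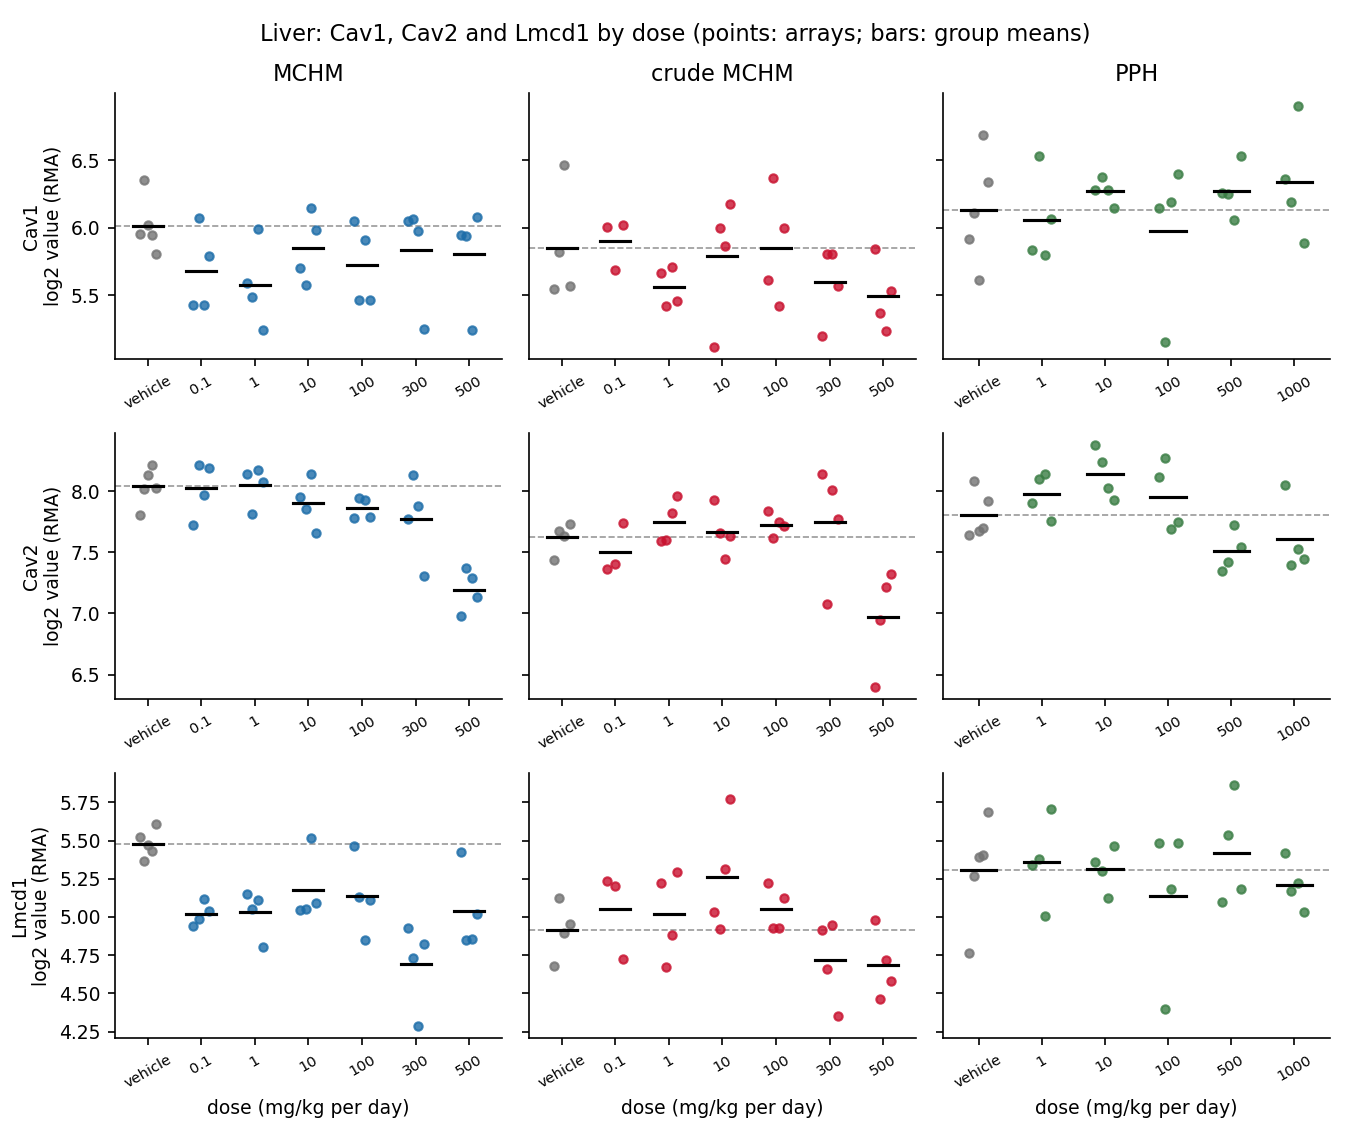
Log2 values of Cav1, Cav2 and Lmcd1 (rows) in liver by dose of each chemical (columns), with 1 point per array, a black bar for the group mean and a dashed line at the vehicle mean. Cav2 sits lowest at 500 mg/kg of MCHM and of crude MCHM, and Lmcd1 sits lowest in the MCHM set at 300 mg/kg.

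Lmcd1 was lower than its vehicle at each of the 6 MCHM doses, the lowest dose included, and did not follow dose order. MCHM vehicle livers read 5.52, 5.37, 5.47, 5.43 and 5.61 log2 units, an SD of 0.09 around 5.48. At 0.1 mg/kg the arrays read 4.94, 4.99, 5.12 and 5.04, and at 1 mg/kg they read 5.15, 5.05, 5.11 and 4.80. Both groups lay wholly below the vehicle, and how many of all genes did so at these doses was not counted. The lowest group was 300 mg/kg, with 4.93, 4.73, 4.28 and 4.82, a mean of 4.69 ± 0.28 (SD, n = 4) and a difference of -0.79. That mean was at the level of 4.69 log2 units that the gene filter used in liver, and 3 of the 4 arrays exceeded it. The 500 mg/kg arrays read 5.43, 4.85, 4.86 and 5.02, so the difference was -0.44 and replicate 40 reached into the vehicle range. Genes called in these fits came to 0.0265% at 300 mg/kg and to 0% at 0.1 mg/kg. The level of the vehicle itself differed between sets: Lmcd1 averaged 5.48 in MCHM vehicle livers, 5.30 ± 0.34 in PPH vehicle livers and 4.91 ± 0.18 in crude MCHM vehicle livers (SD). The 0.1 and 1 mg/kg MCHM means of 5.02 and 5.03 lay between the last of these and the PPH vehicle mean.

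Cav1 in liver differed in direction between its probe sets. On the brightest, 1372111_at, its means were lower than the vehicle at all 6 MCHM doses, from 5.58 at 1 mg/kg to 5.85 at 10 mg/kg, against 6.02 ± 0.20 (SD, n = 5) in MCHM vehicle livers, and every dose group overlapped the vehicle. Its 500 mg/kg arrays read 5.95, 5.94, 5.25 and 6.08, with replicate 43 alone below the others. At 300 mg/kg replicate 33 stood apart in the same way (5.25, against 5.98 to 6.07 in the other 3). The difference of -0.18 at 300 mg/kg turned to 0.016 without that array and to 0.044 with the mean of all Cav1 probe sets. The difference of -0.21 at 500 mg/kg was -0.030 with the mean of probe sets and ran from -0.30 to -0.027 with 1 array left out. Of the dimmer probe sets, 1393281_at was above the vehicle at all 6 doses, by 0.16 to 0.42, and 1370131_at differed by -0.28 to 0.16, each with overlap.

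Crude MCHM tests the Cav2 difference in animals that had no part in choosing the gene. Livers at 500 mg/kg read 6.40, 6.94, 7.21 and 7.32 log2 units, against 7.44, 7.68, 7.64 and 7.73 in crude MCHM vehicle livers. The groups did not overlap, with means of 6.97 ± 0.41 and 7.62 ± 0.13 (SD, n = 4 each). The difference was -0.65 (95% interval -1.03 to -0.27), which missed the threshold after adjustment over 11402 genes (limma, adjusted p = 0.104). Of the genes tested, 0.675% were called at this dose, and the share whose groups did not overlap was not counted. No call appeared in 4 of 5 alternatives and in 26 of 27 fits with 1 array left out. Over the alternatives the difference ran from -0.66 to -0.49, with a limma adjusted p of up to 0.131. The 2 exceptions were 1 fit for all chemicals of the tissue (adjusted p = 0.0294) and the fit without 1 of the 300 mg/kg livers (0.0422). That liver read 7.08 while the other 3 of its group read 7.77 to 8.14. Without the lowest 500 mg/kg liver (6.40) the difference was -0.46 (adjusted p = 0.232).

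At the 5 lower doses of crude MCHM Cav2 differed from the vehicle by -0.12 to 0.13, and all those groups overlapped it. The trend over dose ranks was -0.05 log2 units per rank (limma, adjusted p = 0.3), with 1.91% of genes called for a trend in that set. Of the other probe sets, 1377642_at differed by -0.58, 1386261_x_at by -0.46 and 1370135_at by -0.28 at 500 mg/kg, each with overlap.

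Lmcd1 and Cav1 did not pass the test in crude MCHM livers. Lmcd1 read 4.98, 4.46, 4.72 and 4.58 log2 units at 500 mg/kg, against 4.68, 5.12, 4.90 and 4.95 in vehicle livers, a difference of -0.23 (95% interval -0.59 to 0.14, adjusted p = 0.633). Of 4 arrays in each group, 2 treated and 3 vehicle arrays exceeded the liver filter level of 4.69. The groups overlapped, as they did at each other dose, where the differences ran from -0.19 to 0.35. Cav1 read 5.85, 5.37, 5.23 and 5.53 at 500 mg/kg, against 5.55, 5.82, 6.46 and 5.57 in vehicle livers (difference -0.36, 95% interval -0.82 to 0.11, adjusted p = 0.529).

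None of the 3 genes passed the threshold in PPH livers, where 1.75% of 11342 genes were called at 1000 mg/kg and 0.0882% at 500 mg/kg. Cav2 read 7.35, 7.42, 7.72 and 7.54 log2 units at 500 mg/kg and 8.05, 7.40, 7.53 and 7.44 at 1000 mg/kg, against 7.64, 8.08, 7.67, 7.70 and 7.92 in PPH vehicle livers. Both groups overlapped the vehicle, with differences of -0.30 (adjusted p = 0.415) and -0.20 (adjusted p = 0.568). The 10 mg/kg group differed by 0.34 (adjusted p = 0.435), at a dose where 0.00882% of genes were called. The Cav2 trend was -0.07 per dose rank (adjusted p = 0.163), beside 1.32% of genes called for a trend. Lmcd1 differed by -0.17 to 0.12 and Cav1 by -0.16 to 0.20 over the 5 doses, with overlap at each of them.

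Across the 20 liver groups, Cav2 means were lowest at 500 mg/kg crude MCHM (6.97) and 500 mg/kg MCHM (7.19), neighbours whose arrays overlapped. The next groups up were 0.1 mg/kg crude MCHM (7.50) and 500 mg/kg PPH (7.51), and the top was 10 mg/kg PPH (8.14). Lmcd1 was lowest at 500 mg/kg crude MCHM and 300 mg/kg MCHM (both 4.69) and highest in the MCHM vehicle (5.48) and at 500 mg/kg PPH (5.42). Cav1 ran from 5.49 at 500 mg/kg crude MCHM to 6.33 at 1000 mg/kg PPH. For each gene, the arrays of any 2 neighbouring groups in these orders overlapped.

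**Figure D2:**
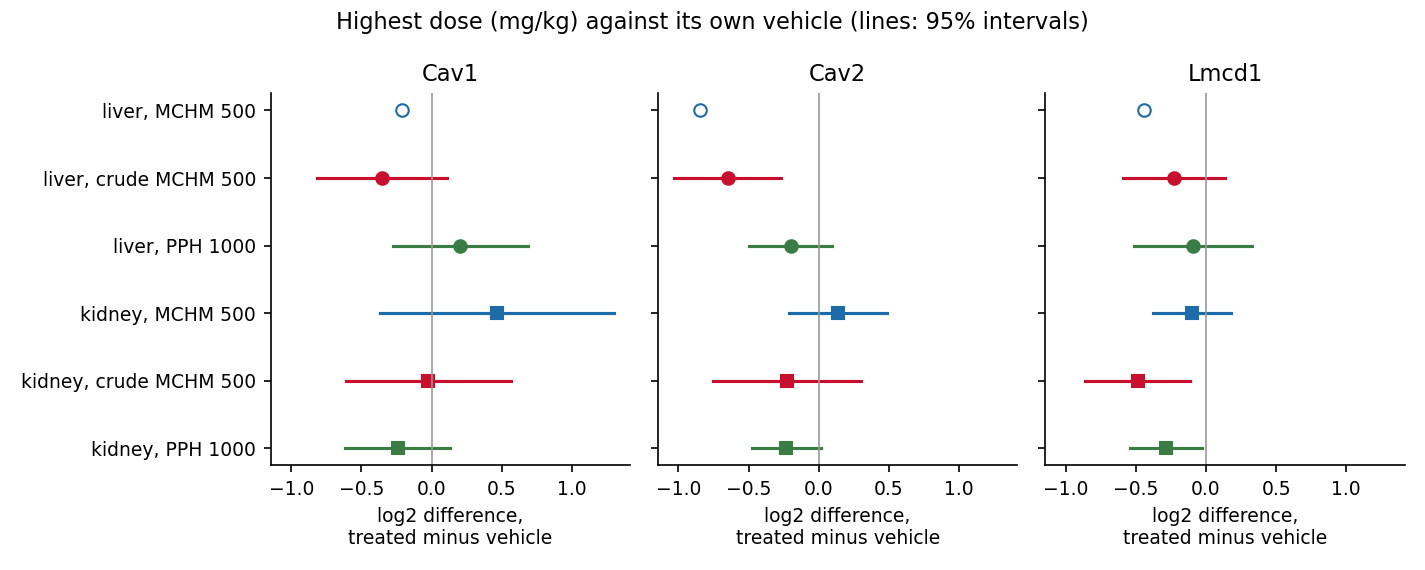
Log2 difference of each member from its own vehicle at the highest dose, for 6 combinations of tissue and chemical, with 95% intervals from limma where the gene was tested (open circles: MCHM liver, described without a test). Cav2 lies left of 0 in all liver rows, at -0.85 for MCHM, -0.65 for crude MCHM and -0.20 for PPH.

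At matched doses the responses to the chemicals in liver were compared for crude MCHM and PPH. None of 12 differences between them (3 genes at 4 doses) passed limma's threshold or had an unadjusted p under 0.05. The crude MCHM minus PPH difference at 500 mg/kg was -0.35 for Cav2 (95% interval -0.81 to 0.10), -0.34 for Lmcd1 (-0.85 to 0.17) and -0.50 for Cav1 (-1.14 to 0.15). These intervals hold differences of over 0.5 as well as 0, and 0% of all genes were called in that comparison. Differences that contain the MCHM liver contrast are values only. MCHM minus crude MCHM at 500 mg/kg was -0.20 for Cav2, -0.22 for Lmcd1 and 0.14 for Cav1, and MCHM minus PPH was -0.55 for Cav2, -0.56 for Lmcd1 and -0.36 for Cav1.

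In kidney none of the members was called for any chemical at any dose. Counting crude MCHM and PPH in liver too, limma called 0 of 84 comparisons between a dose and its vehicle, and 7 (8.33%) had an unadjusted p under 0.05, beside 8.04% of all genes in the same comparisons. It also called 0 of 15 dose trends, and 4 of them (26.7%) had an unadjusted p under 0.05, beside 12.2% of all genes. Kidney calls over all genes were few for MCHM (0.0177% at 500 mg/kg), 0% for crude MCHM at 500 mg/kg and 2.03% for PPH at 1000 mg/kg.

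Cav2 in MCHM kidneys did not pass the test. The 500 mg/kg kidneys read 8.49, 8.15, 8.51 and 8.99 log2 units, against 8.42, 8.34, 8.46, 8.61 and 8.16 in vehicle kidneys (difference 0.14, 95% interval -0.21 to 0.48, adjusted p = 0.843). Without replicates 36 and 42, described below, the difference was -0.015 (95% interval -0.28 to 0.25, adjusted p = 0.991). Under crude MCHM it read 8.41, 8.65 and 8.56 at 500 mg/kg, against 8.68, 9.19 and 8.42 in vehicle kidneys (difference -0.22, adjusted p = 0.712). That difference was -0.060 with the mean of probe sets, where 1390800_a_at gave -0.039 and 1370135_at 0.31, and it was -0.011 without the vehicle kidney that read 9.19 and -0.39 without the one that read 8.42. On the brightest probe set, 1377642_at, PPH kidneys had lower Cav2 means than the vehicle at all 5 doses, by -0.37 at 500 mg/kg (adjusted p = 0.64), -0.35 at 10 mg/kg (adjusted p = 0.579) and -0.23 at 1000 mg/kg (adjusted p = 0.357). Probe set 1390800_a_at was lower at all 5 doses too, by -0.26 to -0.37, while the dimmer 1370135_at was higher at all 5, by 0.078 to 0.29, and with the mean of probe sets the 1000 mg/kg difference was -0.092. The kidney groups overlapped their vehicles at each dose.

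Lmcd1 in kidney was lowest at the top dose of each chemical, in values that did not pass the threshold. At 500 mg/kg crude MCHM it read 6.52, 6.65 and 6.91 log2 units, against 7.23, 7.31 and 7.01 in vehicle kidneys. These groups did not overlap, with means of 6.69 ± 0.20 and 7.18 ± 0.15 (SD, n = 3 each) and a difference of -0.49 (95% interval -0.86 to -0.12, limma adjusted p = 0.317). How often groups of this size lay apart over all genes was not counted. At 1000 mg/kg PPH it read 6.72, 6.77, 6.69 and 7.06, against 7.27, 7.20, 7.05, 7.04 and 6.92 in vehicle kidneys (difference -0.28, adjusted p = 0.264). At 500 mg/kg MCHM the difference was -0.10 (adjusted p = 0.861). Its trend over dose ranks was -0.07 for crude MCHM (adjusted p = 0.516, 0% of genes called), -0.05 for PPH (adjusted p = 0.266, 1.58% called) and -0.04 for MCHM (adjusted p = 0.542, 0.124% called).

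**Figure D3:**
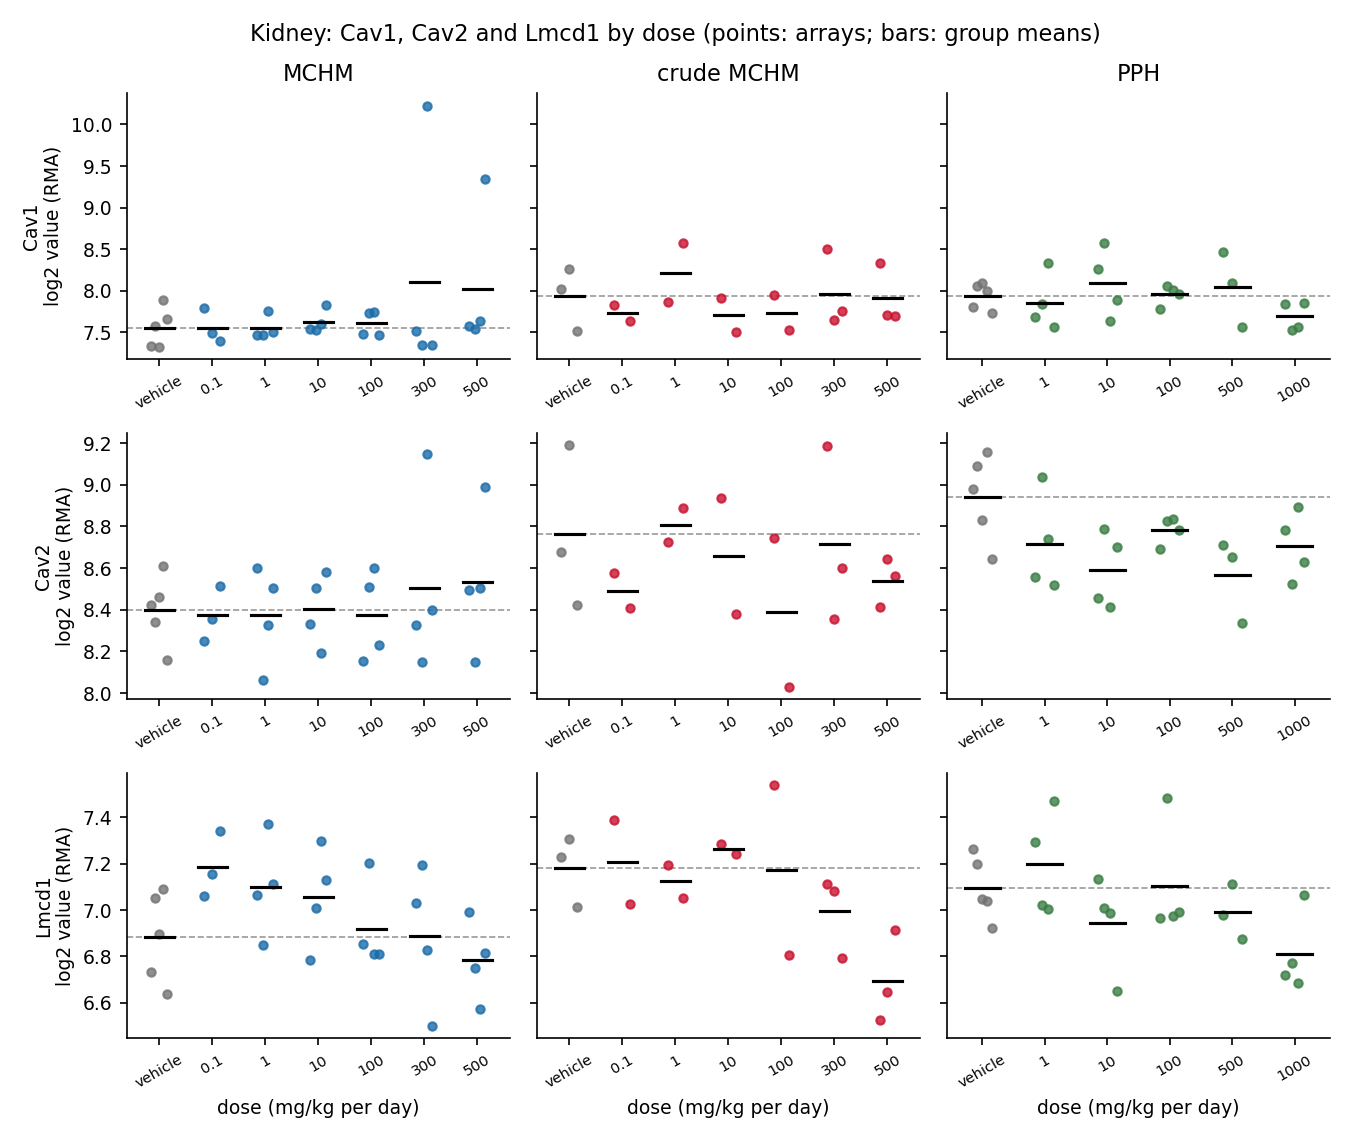
Log2 values of Cav1, Cav2 and Lmcd1 (rows) in kidney by dose of each chemical (columns), drawn as for liver. The 2 Cav1 points far above the rest are MCHM replicate 36 at 300 mg/kg (10.23) and replicate 42 at 500 mg/kg (9.34).

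Cav1 in kidney was set apart by 2 animals of the MCHM set. Replicate 36 at 300 mg/kg read 10.23 log2 units and replicate 42 at 500 mg/kg read 9.34, while the other 3 kidneys of those groups read 7.34 to 7.51 and 7.54 to 7.64, and MCHM vehicle kidneys read 7.34, 7.58, 7.32, 7.89 and 7.66. Cav2 read 9.15 and 8.99 in them, within the 8.03 to 9.19 of the other 67 kidneys of all 3 sets. Within the MCHM set these were the 2 highest Cav2 values, and the next kidney, a vehicle kidney, read 8.61. The same 2 kidneys were the highest of all 69 in fat cell markers, whose mean was 8.91 and 8.16, against at most 7.50 in the other 67. Adipoq, the fat cell hormone adiponectin, read 10.03 and 8.83 in them, against a median of 5.15 and a maximum of 7.99 in the others. Fabp4, the fatty acid carrier of fat cells, read 13.34 and 12.44, against a median of 6.80 and a maximum of 11.62. Of the 7 markers on the array, Adipoq, Plin1, Fabp4, Cfd and Cidec lay above all other kidneys in both, and Lep, which no kidney raised above the filter level, and Lipe did not. Without these 2 kidneys the Cav1 difference was -0.16 at 300 mg/kg (95% interval -0.40 to 0.08, adjusted p = 1) and 0.03 at 500 mg/kg (95% interval -0.22 to 0.27, adjusted p = 0.988), against 0.55 and 0.47 with them.

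**Figure D4:**
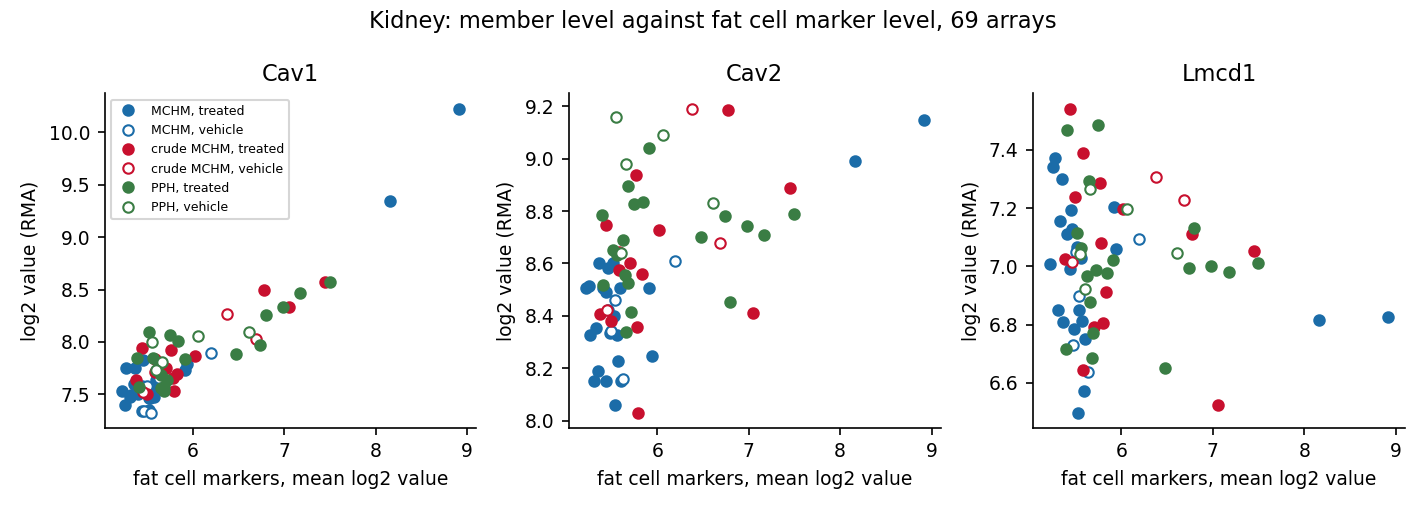
Log2 value of each member (vertical axis) against the mean log2 value of 7 fat cell markers (horizontal axis) in 69 kidneys, with filled points for treated and open points for vehicle rats. Cav1 climbs with the markers up to 10.23, while Lmcd1 shows no such slope.

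Chemicals were compared at matched doses in kidney as well. None of 12 differences of crude MCHM minus PPH, 18 of MCHM minus crude MCHM and 12 of MCHM minus PPH passed limma's threshold, and 1 of the 42 had an unadjusted p under 0.05. That 1 was Cav2 at 500 mg/kg, MCHM minus PPH, at 0.51 (95% interval 0.01 to 1.01, adjusted p = 0.736), with 0% of genes called. Lmcd1 at 500 mg/kg differed by -0.38 between crude MCHM and PPH (95% interval -0.83 to 0.07, adjusted p = 0.607, 0.0956% of genes called) and by 0.39 between MCHM and crude MCHM (-0.05 to 0.82, adjusted p = 0.412, 0.0261% called).

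Whether kidney and liver responded alike at the top dose was tested for crude MCHM and PPH on 1 probe set per gene. For Cav2 under crude MCHM the kidney response minus the liver response was 0.61 log2 units, which did not pass the test (95% interval 0.01 to 1.21, limma adjusted p = 0.366), beside 0.0655% of genes called. With the rat as a replicate block it was 0.60 (adjusted p = 0.343), while the genes called over the whole array came to 47 instead of 7. The other 2 genes had kidney minus liver differences of 0.33 (Cav1, adjusted p = 0.748) and -0.26 (Lmcd1, adjusted p = 0.725). Under PPH the differences were -0.06 for Cav2, -0.19 for Lmcd1 and -0.44 for Cav1, with adjusted p of 0.925, 0.784 and 0.54 and 0.785% of genes called (84, or 155 with the block). For MCHM, where the liver values chose the genes, the differences were 0.98 for Cav2, 0.34 for Lmcd1 and 0.68 for Cav1, the last resting on replicate 42.

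Within dose groups, both caveolins varied together in kidney. The deviations of Cav1 and Cav2 from their group means correlated at r = 0.67 over 69 kidneys (rho = 0.59, permutation test within groups, p = 1e-05, the smallest the resamples can give, adjusted p = 6e-05 over 6 pairs). Without replicates 36 and 42 r was 0.57, and within the sets it was 0.755 for MCHM, 0.724 for crude MCHM and 0.519 for PPH. In 81 livers, 29 of them from the MCHM set that chose the genes, r was -0.07 (rho = -0.02), from -0.38 in the crude MCHM set and -0.13 in the PPH set to 0.41 in the MCHM set. Cav1 and Lmcd1 in liver had r = 0.31, or 0.20 without the 2 farthest livers, and Cav2 and Lmcd1 had r = -0.07. In kidney Lmcd1 had r = 0.08 with Cav1 and 0.18 with Cav2 (permutation test, adjusted p = 0.679 and 0.604).

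**Figure D5:**
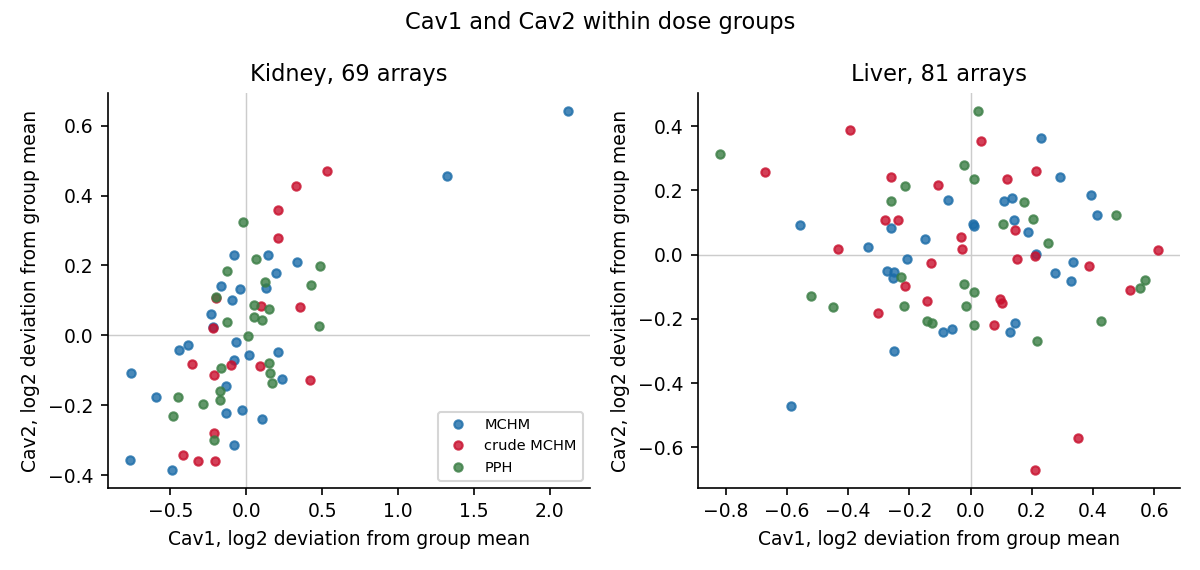
Deviation of Cav2 (vertical axis) against that of Cav1 (horizontal axis) from the group mean, in log2 units, for each kidney (left) and each liver (right), coloured by chemical. The kidney points slope upward (r = 0.67) and the liver points do not (r = -0.07).

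Marker levels of other cell types moved with the members between rats of the same group, in 18 relations that were chosen after the data were seen. In kidney, Cav1 correlated with the fat cell list at r = 0.90 (rho = 0.79, permutation adjusted p = 9e-05), or 0.83 without replicates 36 and 42, and at 0.78 to 0.97 within each chemical set. Cav1 also correlated with the fibroblast list (r = 0.66) and the endothelial list (r = 0.37, adjusted p = 0.0116). Cav2 in kidney correlated with the fat cell list at 0.52 (0.345 without the 2 farthest kidneys) and with the fibroblast list at 0.46. The liver relations include the 29 MCHM livers and are given with no p. Cav1 and the fibroblast and stellate cell list had r = 0.57 (rho = 0.58), with 0.76 in the crude MCHM set, 0.71 in the PPH set and 0.18 in the MCHM set. Cav2 and that list had r = -0.34 (rho = -0.35), with -0.54 in the MCHM set, -0.43 in the crude MCHM set and -0.145 in the PPH set. Lmcd1 and that list had r = 0.41 (rho = 0.32), with 0.47 in the MCHM set, 0.21 in the crude MCHM set and 0.50 in the PPH set. Lmcd1 in kidney passed the threshold with none of the lists.

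The same lists at 500 mg/kg stood as follows in liver. Fibroblast and stellate cell markers had a median difference of -0.205 under MCHM (8 of 10 tested below the vehicle) and of -0.351 under crude MCHM (10 of 10), beside 0.00642 and 0.0119 for all genes, and none of them was called. Their mean ranged from 6.84 to 7.17 in MCHM livers against 6.99 to 7.44 in vehicle livers, and from 6.92 to 7.22 in crude MCHM livers against 7.27 to 7.68 in vehicle livers. Endothelial markers had median differences of -0.0909 and -0.0885, and their mean ranged from 6.76 to 6.99 in MCHM livers against 6.91 to 7.05 in vehicle livers. Macrophage markers, all 7 tested below the vehicle under MCHM, had a median of -0.28, and their mean ranged from 8.15 to 8.62 in MCHM livers against 8.51 to 8.72 in vehicle livers. Under crude MCHM the sinusoidal endothelial markers did not overlap, at 8.56 to 8.62 in treated against 8.70 to 8.89 in vehicle livers (5 of 5 lower), and under MCHM they overlapped, at 8.73 to 8.88 in treated against 8.82 to 9.0 in vehicle livers. Single markers were called in MCHM livers, where 2.38% of genes were called for a trend and 0.512% at 500 mg/kg. With dose rank fell Mrc1, the mannose receptor of sinusoidal cells (-0.05 per rank, adjusted p = 0.00568), and the macrophage genes Csf1r (-0.04, adjusted p = 0.0148) and Adgre1 (-0.07, adjusted p = 0.0247). Apoa1, a hepatocyte apolipoprotein, fell by 0.05 per rank (adjusted p = 0.0124), as did Cfd of the fat cell list (adjusted p = 0.0172). Tat, the hepatocyte tyrosine aminotransferase, rose by 1.39 at 500 mg/kg, to 10.05 ± 0.51 in treated livers, against 8.67 ± 0.30 in vehicle livers (adjusted p = 0.0298). The hepatocyte list mean was 13.07 to 13.18 in treated against 12.87 to 12.99 in vehicle livers. It averages 8 genes, with Tat and the falling Apoa1 among them, and the share of Tat in its rise was not tested. Adipoq was below the filter level in all 81 livers. The part of these cell types in the Cav2 and Lmcd1 differences was not tested.

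Among the other genes of the caveola, Cavin2 was the 1 called at 500 mg/kg MCHM in liver. Of the 14 listed coat and neck genes, 12 were on the array and 11 were tested in liver, and Cavin1 and Cavin4 were not among them. At 500 mg/kg MCHM the list had 0 risen and 1 fallen, with a median of 0.000235, and 0.512% of all genes were called. The fallen gene was Cavin2, a coat cavin, at 6.63 ± 0.13 in treated and 7.00 ± 0.09 in vehicle livers (difference -0.36, SE 0.08, limma adjusted p = 0.0272). It also fell with dose rank by 0.05 per rank (adjusted p = 0.0105), where 2.38% of genes were called. Pacsin2 differed by 0.20 (adjusted p = 0.267), Cav3, the muscle caveolin, by 0.16 (adjusted p = 0.428), Cavin3 by -0.06 (adjusted p = 0.909) and Ehd2 by -0.03 (adjusted p = 0.947).

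Cavin2 under crude MCHM at 500 mg/kg was at 6.28 ± 0.12 in treated and 6.55 ± 0.18 in vehicle livers, a difference of -0.27 that did not pass (adjusted p = 0.46), and under PPH at 1000 mg/kg it differed by 0.15 (adjusted p = 0.596). Cavin3 rose by 0.62 (adjusted p = 0.0402) at 300 mg/kg crude MCHM, where 1.01% of genes were called, to 11.40 ± 0.13 in treated livers against 10.78 ± 0.20 in vehicle livers, and differed by 0.16 at 500 mg/kg (adjusted p = 0.702). Ehd1, a membrane recycling protein, rose by 0.26 at 1000 mg/kg PPH (limma adjusted p = 0.022). It was the 1 gene of the list called there, beside 1.75% of all genes. In kidney no gene of the list was called at the top dose of any chemical. All genes called there came to 0.0177% for MCHM, 0% for crude MCHM and 2.03% for PPH.

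Among 15 caveolin partners and cargo, 13 were tested in liver, and Cd36, the fatty acid transporter, was the 1 called at a top dose. It rose by 0.65 at 1000 mg/kg PPH (limma adjusted p = 0.0295), where 1.75% of all genes were called. Cd36 read 7.44 ± 0.18 in treated and 6.79 ± 0.24 in vehicle livers. The list of 20 genes related to Lmcd1 held 0 called genes at 500 mg/kg MCHM, beside 0.512% of all genes. In that list 13 of 20 were below the vehicle, with a median of -0.0781. At 1000 mg/kg PPH, Csrp1, a LIM domain protein of the actin skeleton, fell by 0.39 in liver (limma adjusted p = 0.0182). Fhl1, a LIM domain protein of muscle, rose by 0.65 in kidney (limma adjusted p = 0.00545), where 2.03% of all genes were called.

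The genes whose liver profile was most like each member were found over 81 livers, each taken as its difference from its own vehicle mean, among 11623 genes. This includes the MCHM livers that chose the members, and neighbouring arrays share their vehicle, so the r values are a description. Cav1 went with Efemp1, an extracellular matrix protein (r = 0.714), Anxa1, annexin A1 (0.688), and S100a6 (0.672), and opposite to LOC102551963 (-0.456), the fructose transporter gene Slc2a5 (-0.447) and Tshz1 (-0.428). Cav2 went with Stac3 (r = 0.603), the carnosine dipeptidase gene Cndp1 (0.554) and the glypican Gpc4 (0.552). Opposite to Cav2 lay Aig1 (r = -0.609), the fatty acid hydroxylase Cyp4a1 (-0.566) and the ATP synthase subunit Atp5f1b (-0.545). For Cyp4a1 the r was -0.81 in the MCHM set, -0.445 in the crude MCHM set and -0.524 in the PPH set. Lmcd1 went with Elk3, an ETS family transcription factor (r = 0.573), C9h6orf226 (0.571) and the LIM domain gene Fhl2 (0.566), and opposite to Pincl (-0.546), Ndnf (-0.536) and the acetylcholine receptor subunit Chrna7 (-0.526). C9h6orf226 reached 0.715 in the crude MCHM set and 0.0368 in the PPH set.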

How the data were processed

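Affymetrix Rat Genome 230 2.0 arrays measured total RNA of liver and kidney. The authors deposited log2 expression values made with RMA, per the submitters' processing notes, for 31099 probe sets. The RMA version is not given in the sources used here. The array annotation gave 20832 probe sets 1 gene symbol, 436 several and 9831 none here. The left-out kidney array had a median r of 0.401 with the other kidneys, and of 0.952 once its values were moved by 1 row.

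A gene was fitted where 3 arrays or more exceeded the 40th percentile of the tissue, which was 4.69 log2 units for liver and 4.66 for kidney, with limma 3.58.1 (R 4.3.3, package data.table, version 1.17.8), 2-sided, with Benjamini-Hochberg adjustment over all genes tested and a threshold of 0.05. The 3 members passed this filter in each fit. Each dose was set against the vehicle of its own set in 6 fits. The share of all genes without overlap was not counted for any pair of groups or tissues, so non-overlap only describes the values. Dose trends used dose ranks, chemical differences 1 fit per tissue, and tissue differences 1 fit per chemical. Kidney correlations used 100000 permutations within groups, with adjustment over the pairs of both tissues, and liver correlations are given without a p because they include MCHM livers. The fits were tested on simulated data. Sequences came from the RefSeq tables for GRCr8, which held all 3 members.

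The members, lists, motifs and named-gene rule were chosen with earlier results of these data known. Named were the members, Cav3, the cavins, Ehd2 and Pacsin2, up to 4 called genes per list of caveola, partner or Lmcd1-related genes, and per member the 3 genes with the highest and the 3 with the lowest r. The called cell type markers of MCHM livers were added after their values were seen. Same-numbered arrays of both tissues come from 1 rat, and their deviations correlated at a median r of 0.107 (crude MCHM, 16 pairs), 0.156 (MCHM, 27) and 0.143 (PPH, 22). Alternatives were no filter, mean of probe sets, quantile normalization, array weights, 1 fit for all chemicals, a replicate block and each array left out.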

Additional observations from a re-analysis of the deposited data

Results flagged for a closer look

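Each of the 3 genes was looked at in the 30 groups of 4 or 5 arrays, which gives 90 sets of values, and Dixon's criterion for a lone value picked out 8 of them, where chance picks out about 1 in 20. It compares arrays within a group and not a dose with its vehicle, and groups of under 4 arrays were left out. In kidney, Cav1 stood far above the rest of its group in MCHM replicate 36 at 300 mg/kg (10.23 log2 units), in replicate 42 at 500 mg/kg (9.34) and, within a narrow group, in replicate 15 at 1 mg/kg (7.75, against 7.47 to 7.50). In liver, Cav1 stood below its group in MCHM replicate 33 at 300 mg/kg (5.25, against 5.98 to 6.07) and in replicate 43 at 500 mg/kg (5.25, against 5.94 to 6.08). Lmcd1 stood above its group in the kidney of MCHM replicate 28 at 100 mg/kg (7.20, against 6.81 to 6.85), in a PPH kidney at 100 mg/kg (7.49, against 6.97 to 6.99) and in the liver of MCHM replicate 25 at 10 mg/kg (5.52, against 5.04 to 5.09).

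In 3 cases all treated arrays of one kind lay above their vehicle mean and all of the other below it, and none of these differences was tested. Cav2 at 10 mg/kg PPH differed by -0.35 in kidney and 0.34 in liver, a kidney minus liver difference of -0.69. That subtraction sets the brightest probe set of each tissue side by side, 1377642_at in kidney and 1390800_a_at in liver. On 1390800_a_at alone the values were -0.32 in kidney and 0.34 in liver. Lmcd1 at 0.1 mg/kg MCHM differed by 0.30 in kidney and -0.46 in liver, a difference of 0.76. In liver at 100 mg/kg, Lmcd1 differed by -0.34 under MCHM and 0.14 under crude MCHM, a difference of -0.48. The last 2 contain the MCHM liver values that chose the gene.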

How the results depend on the processing

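Of 53 results, 250 of 262 alternatives and 964 of 977 refits with 1 array left out kept the side of zero and of the threshold, or moved less than the spread between arrays. Some of the results are counts of called members, which were 0 in the main fit and were kept when they stayed 0. The tested differences were all uncalled there, and were kept when the sign held and no call appeared. The share kept therefore does not measure the precision of the values. A change of sign where neither value was called, or of over 0.2 in r, counts as a move. The difference of Cav1 in MCHM livers at 300 mg/kg reversed to 0.044 with the mean of all probe sets and to 0.016 without replicate 33 (range with 1 array left out -0.26 to 0.016). With the mean of all probe sets, Cav2 at 500 mg/kg was -0.68 in MCHM livers, Cav1 at 500 mg/kg was 0.23 in crude MCHM kidneys and 0.062 for crude MCHM minus PPH in kidney, and Cav2 was 0.077 for the kidney minus liver response to PPH. Cav2 at 500 mg/kg crude MCHM in liver became a call in 1 fit of all chemicals (-0.65, adjusted p = 0.0294, 1 member called) and without the 300 mg/kg liver that read 7.08 (adjusted p = 0.0422), with values from -0.77 to -0.46 and 0 to 1 members called over the arrays left out. Ranges with 1 array left out crossed zero for Lmcd1 in 1000 mg/kg PPH livers (-0.23 to 0.0012), Cav2 in 500 mg/kg MCHM kidneys (-0.015 to 0.26, and -0.015 without the 2 kidneys highest in fat cell markers, an alternative chosen after the data were seen), Cav1 in 500 mg/kg crude MCHM kidneys (-0.23 to 0.14), crude MCHM minus PPH in kidney for Cav1 (-0.36 to 0.090) and Cav2 (-0.021 to 0.36), and the kidney minus liver response of Cav2 to PPH (-0.13 to 0.088). The cause of these moves was not tested. Correlations within 1 chemical set moved for Cav1 and Cav2 in liver (0.41 in the MCHM set, -0.38 in the crude MCHM set) and for Cav2 and Lmcd1 in kidney (0.60 in the crude MCHM set, -0.16 in the PPH set). The replicate block, the same rat in both tissues, changed no call of a member, with a kidney minus liver difference of 0.60 for Cav2 under crude MCHM.

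Counts over the whole array moved more than the members. Calls were summed over the doses of a comparison, so a gene called at several doses counts once for each. In liver the calls were 192 for crude MCHM (up to 352 over the alternatives, down to 43 with 1 array left out) and 210 for PPH (up to 506 and down to 78). In kidney they were 2 for MCHM (1 to 61 over the alternatives, 0 to 8 with 1 array left out) and 0 for crude MCHM (0 to 266, 0 to 418), and for PPH 97 to 364 with 1 array left out. Crude MCHM minus PPH in kidney gave 11 (0 to 320, 0 to 354) and the kidney minus liver response to crude MCHM gave 7 (5 to 561, 0 to 325). Groups of 2 to 5 arrays limit the precision, as does the signal of Lmcd1 in liver, at the 47.3 percentile of probe sets.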
